A study of Mus musculus with 6 samples.

Results

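Genes of the hypoxia response and of glycolysis were followed as a named set of 37 genes out of the 23224 in the deposited table. They were picked by gene symbol, with earlier results of these data known, and all 37 had a row. The set covers hypoxia-inducible factors and their oxygen sensors, glucose transporters, glycolytic enzymes and well-known hypoxia-induced genes. A total of 36 were abundant enough to test. The exception, Slc2a3, which encodes the neuronal-type glucose transporter GLUT3, had between 0 and 2 counts in each library.

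RNA was sequenced from mouse tumour organoids, cultures that grow as small epithelial bodies, in 3 Control libraries and 3 libraries labelled SOX17KO. They are labelled as AKP organoids that came out of an in vivo tumour, and the labels give neither the alleles nor the guide. Both groups share this background, and the SOX17KO group was made by CRISPR-Cas9 deletion of SOX17, an endoderm transcription factor, to study its role in colon cancer. Nothing in the labels tells if replicates are separate cultures, or if the deletion is 1 clone or a pool, and p-values then measure only the spread between these samples, which may be technical.

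Cells sense low oxygen through prolyl hydroxylases, encoded by the Egln genes, which mark the alpha subunits of hypoxia-inducible factor (HIF) for destruction through the VHL ubiquitin ligase while oxygen is present. When oxygen falls, the alpha subunits persist, pair with ARNT and bind DNA at the core letters ACGTG or GCGTG near genes for glucose uptake, glycolysis, lactate export, blood vessel growth and mitochondrial turnover. The intestinal epithelium lies in a steep oxygen gradient, and many intestinal tumours run glycolysis at a high rate even with oxygen present.

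The stretches below are the DNA just before the start sites of the 4 genes whose 3 SOX17KO libraries all lay above the 3 Control libraries. Ankrd37, whose log2 fold change was the lowest of the 36, is added. Pfkfb3 was included because it passed the test between the groups, and the others were picked with their values known. Sequences are from RefSeq on GRCm38.p6, written 5′ to 3′ along the gene's strand, from up to 250 bases before the start site, less any annotated exon. Capitals mark ACGTG or GCGTG on either strand, so the palindrome CACGTG, which is also the core of an E-box, is found on both strands, and CACGC is GCGTG read on the other strand.
Pfkfb3, chr2:11502102-11502340 (reverse strand): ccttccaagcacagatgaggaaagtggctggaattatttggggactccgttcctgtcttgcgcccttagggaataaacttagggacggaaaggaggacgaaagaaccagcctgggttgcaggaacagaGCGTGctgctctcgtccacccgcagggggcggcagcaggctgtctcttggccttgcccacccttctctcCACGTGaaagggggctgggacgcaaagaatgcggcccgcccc
Slc16a3, chr11:120948817-120949066 (forward strand): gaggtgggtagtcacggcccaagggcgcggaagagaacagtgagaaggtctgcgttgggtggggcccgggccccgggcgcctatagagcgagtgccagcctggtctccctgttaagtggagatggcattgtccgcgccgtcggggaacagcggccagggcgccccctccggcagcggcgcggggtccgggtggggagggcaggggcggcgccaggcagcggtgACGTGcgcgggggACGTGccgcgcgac
P4ha2, chr11:54100674-54100923 (forward strand): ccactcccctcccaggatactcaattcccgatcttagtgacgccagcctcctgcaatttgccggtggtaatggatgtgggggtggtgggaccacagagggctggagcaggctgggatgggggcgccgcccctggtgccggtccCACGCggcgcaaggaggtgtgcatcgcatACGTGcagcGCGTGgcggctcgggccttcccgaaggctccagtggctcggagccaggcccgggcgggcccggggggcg
Hif1a, chr12:73907617-73907866 (forward strand): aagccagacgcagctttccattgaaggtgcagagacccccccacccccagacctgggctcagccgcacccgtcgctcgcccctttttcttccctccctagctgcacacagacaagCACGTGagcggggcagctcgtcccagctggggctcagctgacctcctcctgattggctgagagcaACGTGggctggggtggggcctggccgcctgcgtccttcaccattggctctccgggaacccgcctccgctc
Ankrd37, chr8:45999868-46000100 (reverse strand): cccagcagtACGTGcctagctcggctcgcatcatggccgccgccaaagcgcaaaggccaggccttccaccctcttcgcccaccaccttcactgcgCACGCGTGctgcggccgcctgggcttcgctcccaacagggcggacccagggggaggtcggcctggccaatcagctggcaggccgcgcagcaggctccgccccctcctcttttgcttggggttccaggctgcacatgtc
A core begins 122, 53 and 52 bases before the start in Pfkfb3, 27 and 14 before it in Slc16a3, 107, 78 and 69 in P4ha2, 135, 134 and 70 in Hif1a, and 241, 155 and 152 in Ankrd37. Pfkfb3 has another RefSeq start site, whose exon-free stretch of 102 bases (chr2:11554078-11554179) holds 0 cores. Which start these organoids used was not measured. Of the genes whose SOX17KO libraries all lay below Control, only Ankrd37 is printed. The exon-free stretches of Kdm3a and Tpi1 held 0 cores, and that of Hk2 held 2. Annotated exon that was left out held further cores. They begin 27 bases before a start of Kdm3a, 60 before the other start of Pfkfb3 and 6 before that of Ankrd37. A relation between cores and group differences was not tested.

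Of the 37 genes, 33 had a RefSeq window from 250 bases before to 50 after a start site, and Epas1, Slc2a3, Bnip3l and Ndrg1 were not matched. At least 1 core was present in 40 of their 50 windows (80%), against 62.1% of the 11073 windows of all genes tested and 43.8% of all 32851 windows. The median GC content of the windows was 63.2%, 60.7% and 52.7% in the same order, and the cores contain CG, so the shares were not separated from base composition. A match describes letters only, not a bound site.

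Depth was 18290912 to 27503254 counts per library, and levels below are CPM, counts scaled to a common library size with TMM, a factor that equalises the bulk of genes between libraries. Sox17 itself was at 34.4, 34.5 and 34.2 CPM in Control and 33.8, 41.9 and 45.1 CPM in the libraries labelled SOX17KO (edgeR quasi-likelihood test, Benjamini-Hochberg adjusted p = 0.345), so its RNA level does not check the labels, and every direction below refers to labelled libraries. SOX17KO replicate 1 stood apart: its log2 CPM over all tested genes correlated at 0.960 and 0.963 with the other 2 SOX17KO libraries, against 0.986 between those. Replicates 2 and 3 correlated at 0.968 to 0.970 with the Control libraries, higher than with replicate 1, which was at 0.946 to 0.951 with Control. Results are therefore given with and without replicate 1. That choice was made from these same data and keeps the 2 SOX17KO libraries that correlated best. The p-values without replicate 1 therefore describe a spread made smaller by the choice. Of 12 epithelial markers, 10 were tested and expressed in every library, while Krt20 and Cdx1 stayed below 1 CPM. All 8 fibroblast markers were below 1 CPM, as were 5 of 6 endothelial markers, with Pecam1 and Emcn at or near 0 and Tie1 at 0.99 to 1.84 CPM. Of 8 immune markers 7 were below 1 CPM, with Cd3e at 0. The exception was Cd68, a macrophage marker, at 10.7, 8.52 and 7.99 CPM in Control and 4.66, 11.7 and 13.3 CPM in SOX17KO replicates 1, 2 and 3.

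Between the groups, 1 of the 36 tested genes was called at an adjusted p below 0.05, and 0 were called lower. That is 2.78%, against 6.87% of all 12137 genes tested (3.67% higher and 3.2% lower). The called gene was Pfkfb3, which encodes the enzyme that makes fructose 2,6-bisphosphate, the strongest activator of phosphofructokinase. In all, 7 of 36 had an unadjusted edgeR p below 0.05, against 20.3% of all genes. The median log2 fold change of the 36 was -0.018 and that of all tested genes 0.014. Groups did not overlap for 8 of the 36, 4 above and 4 below Control, against 28.2% of all tested genes (14% above and 14.2% below). The count of calls was 1 as well with RLE size factors (background 6.84%), with at least 1 CPM in 3 libraries (7.14%), with limma-voom (6.25%) and with unrounded values (6.88%). It was 3 with library totals only (6.48%), 2 with no low-count filter (5.19%) and 5 with DESeq2 (10.7%), which added Slc16a3, Hif1a and P4ha2 as higher and Ankrd37 as lower.

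The near-zero median hid a wide split between the SOX17KO libraries. In SOX17KO replicate 1, 30 of the 36 genes lay below all 3 Control libraries and 6 above, against 40.3% and 41.1% of all tested genes. In SOX17KO replicate 2, 23 lay above and 6 below all Control libraries (background 37.7% and 36.1%), and in replicate 3, 24 lay above and 5 below (background 38.1% and 37.3%). The median difference from the Control mean, in log2 CPM, was -0.56 in replicate 1, 0.15 in replicate 2 and 0.29 in replicate 3, while over all tested genes it was within 0.0078 of 0 in each. Replicate 1 was the lowest SOX17KO library for 33 of 36 genes, as it was for 42.3% of all tested genes; the exceptions were Ldhb, Pdk3 and P4ha2. For 15 of 36 genes (41.7%) replicate 1 lay below and both other libraries above every Control library, a pattern seen in 7.98% of all tested genes, and the opposite pattern occurred in 0 of the 36 and in 7.06% of all tested genes. These shares describe 1 library against 2 and carry no test.

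**Figure D1:**
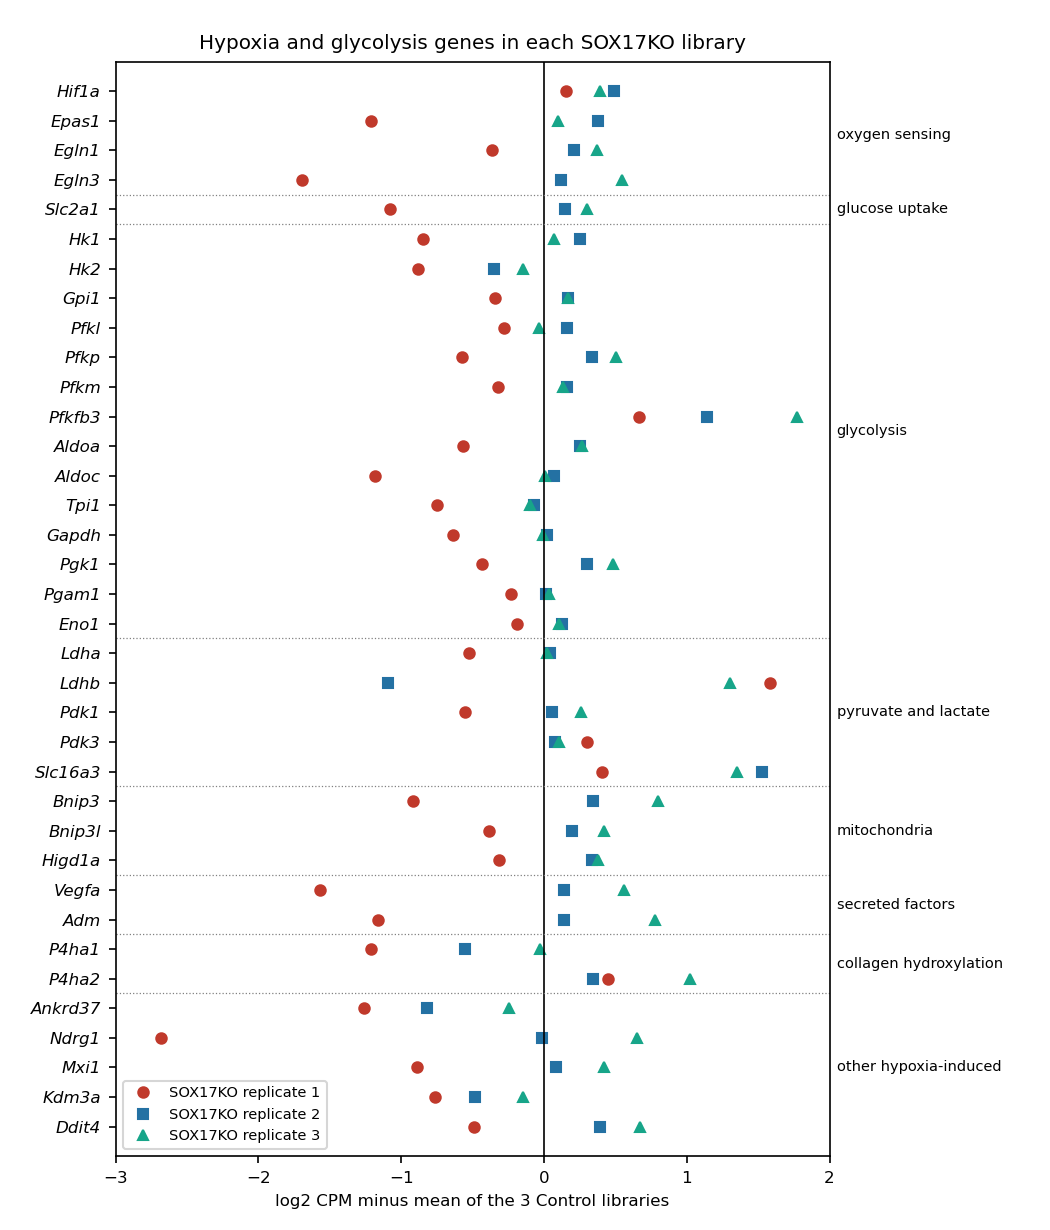
Each row is 1 tested gene and each symbol 1 SOX17KO library (circle, square and triangle for replicates 1, 2 and 3); the x axis is its log2 CPM minus the mean of the 3 Control libraries. Circles sit left of 0 for 30 of the 36 genes, while most squares and triangles sit right of it.

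The genes also took up different shares of the RNA. Together the 37 genes made up 3.07%, 2.92% and 2.94% of the counts in the 3 Control libraries. The share was 2.16%, 3.14% and 3.31% in SOX17KO replicates 1, 2 and 3. Replicate 1 was the lowest of all 6 libraries, and the other 2 SOX17KO libraries were the highest. Its depth of 24765258 counts lay inside the range of the others, and Rn45s, the ribosomal RNA precursor, held 0.474% of its counts, against 0.389% to 0.547% in 4 of the other libraries and 2.10% in Control replicate 2. The 12 epithelial markers summed to 10312 CPM there, against 13570 to 14480 CPM in the other 5 libraries. The keratins Krt8, Krt18 and Krt19 carried that lower sum, with Krt19 at 3467 CPM against 5258 to 6192 CPM. Some other epithelial markers were above every Control library in replicate 1. Epcam was at 678 CPM against 523 to 542 CPM in Control, and Cdh1, Cldn7, Lgr5, Axin2 and Cdx2 were above Control as well. Except for Axin2, this was not particular to replicate 1. Epcam, Cdh1, Cldn7, Lgr5 and Cdx2 were also above every Control library in SOX17KO replicates 2 and 3, with Epcam at 675 CPM in each. Vil1 was inside the Control range in replicate 1. Cd68 was below every Control library in replicate 1 and above them in the other 2 SOX17KO libraries, as were 15 of the 36 genes. The part of these differences in the result was not tested. In such bulk samples fewer cells of a state and less RNA per cell cannot be told apart.

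Without SOX17KO replicate 1, 12 of the 36 genes were called higher and 2 lower with edgeR, 38.9% in all, against 22.2% of the 12220 genes then tested; for higher calls the shares were 33.3% and 11.9%, and 10.3% of all genes were called lower. The median log2 fold change of the 36 moved to 0.25 while that of all genes stayed at 0.00, and 31 of 36 were positive. The median standard error of the 36 fell from 0.22 to 0.084, and that of all tested genes from 0.13 to 0.099. Replicate 1 was left out after its values were seen, so the calls without it are not an independent test. The 12 higher genes were Hif1a, Egln1, Pfkp, Pfkfb3, Aldoa, Pgk1, Slc16a3, Bnip3, Bnip3l, Higd1a, P4ha2 and Ddit4, and the 2 lower ones Ankrd37 and Kdm3a. When Control replicate 1, 2 or 3 was left out, edgeR called 0 of the 36, with 5, 5 and 6 at an unadjusted p below 0.05, and 1.6%, 1.56% and 1.64% of all genes were called. Without SOX17KO replicate 2 the only call was Ldhb, higher (background 6.16%), and without replicate 3 Pfkfb3 was higher and Ankrd37 and Kdm3a lower (background 5.49%).

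**Figure D2:**
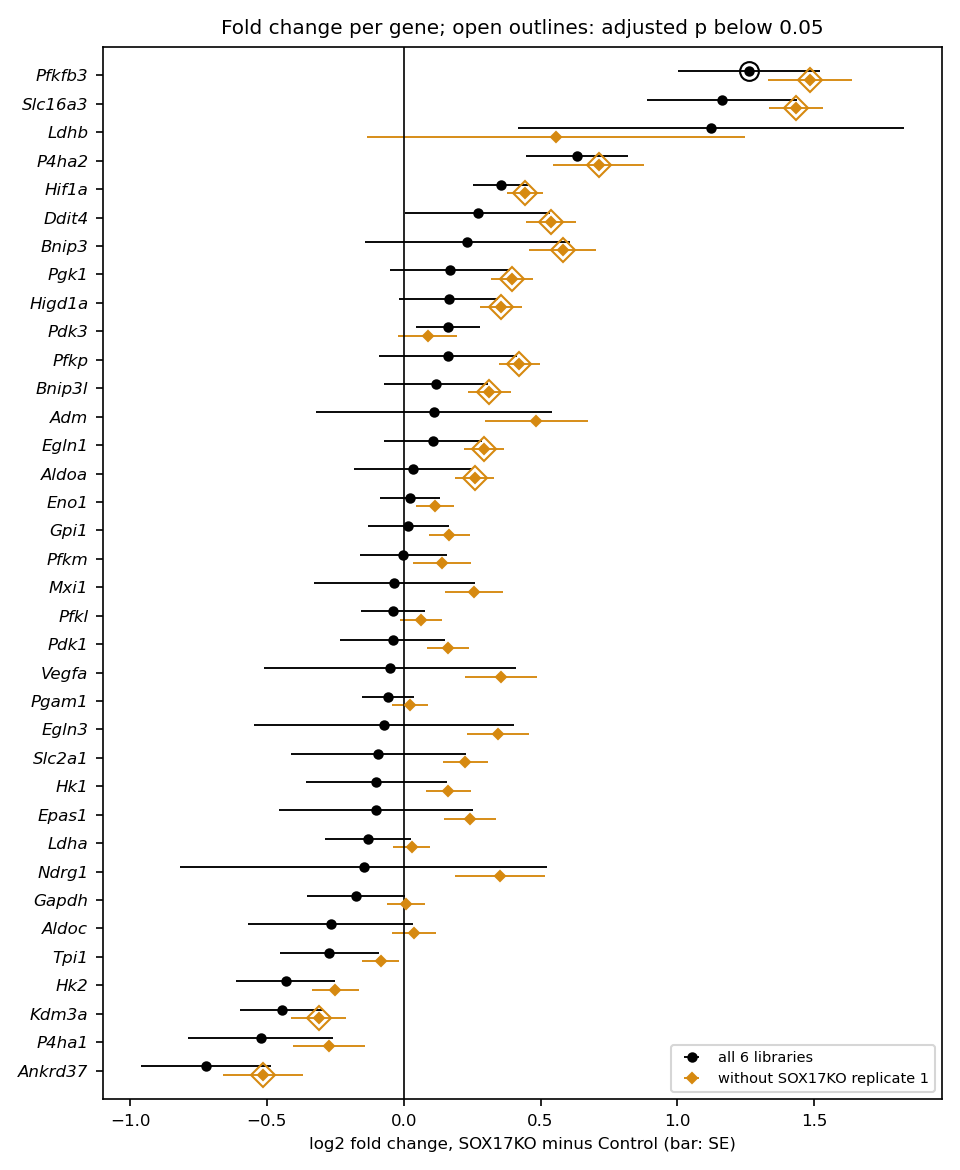
Log2 fold change of each tested gene, SOX17KO minus Control, with its standard error, from all 6 libraries (black circles) and without SOX17KO replicate 1 (orange diamonds); open outlines mark an adjusted p below 0.05. With all libraries 1 gene is outlined, and without replicate 1, 14 are.

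Among the oxygen sensing genes, Hif1a, which encodes the main HIF alpha subunit, was at 184, 185 and 186 CPM in Control and 207, 261 and 243 CPM in SOX17KO replicates 1, 2 and 3. All 3 SOX17KO libraries were above the tight Control group (185 ± 0.67 CPM, SD, n = 3). The difference of 0.35 ± 0.10 in log2 (SE) missed the threshold with 6 libraries (edgeR adjusted p = 0.0896) and passed without replicate 1 at 0.44 (edgeR adjusted p = 0.00113). Hif1a lies on chromosome 12. There 31% of 429 tested genes had all SOX17KO libraries above Control and 15.2% were called higher, against 13.4% and 3.27% elsewhere. The part of this in the value of Hif1a was not tested. Egln3, described below, also lies on chromosome 12, and its SOX17KO libraries overlapped Control (log2 fold change -0.07). Annotated exons of Hif1a, like those of Slc2a1, Gpi1, Bnip3, Higd1a and Ndrg1, overlap an antisense or noncoding gene, and the counting strand is not known here; Hif1a also shares exon sequence with Gm49321 on its own strand. Epas1, the HIF alpha subunit also called HIF-2 alpha, lay between 73.0 and 82.8 CPM in Control, while SOX17KO replicates 1, 2 and 3 had 33.0, 99.4 and 82.1 CPM, so the SOX17KO values fell on both sides of Control.

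The sensors split in the same way. Egln3, a prolyl hydroxylase that HIF itself induces, had 431, 417 and 387 CPM in Control, and 127, 447 and 601 CPM in the SOX17KO libraries. Replicate 1 was far below every other library and the other 2 were above every Control library, and the group difference was -0.07 ± 0.48 in log2 (edgeR adjusted p = 0.960; without replicate 1, 0.35 and edgeR adjusted p = 0.0540). Egln1, the prolyl hydroxylase that sets basal HIF levels in most cells, lay between 139.8 and 146 CPM in Control, with 112, 167 and 186 CPM in SOX17KO (without replicate 1, log2 fold change 0.29, edgeR adjusted p = 0.0170). With 6 libraries neither sensor passed.

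Glucose uptake rested on Slc2a1, which encodes GLUT1, the transporter of most epithelial tumours. Control libraries were at 574, 558 and 507 CPM and SOX17KO replicates 1, 2 and 3 at 259, 605 and 673 CPM. Replicate 1 was below and the other 2 above every Control library, so the group difference in log2 was -0.09 ± 0.32 (SE; edgeR adjusted p = 0.926). Per kilobase of exon, Slc2a1 was at 168 ± 11 CPM in Control and Slc2a3 at 0.0063 ± 0.0054 CPM.

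In glycolysis, 1 of 14 tested enzymes was called (7.14%), close to the 6.87% of all genes. Pfkfb3 was at 32.4, 32.1 and 28.2 CPM in Control and 49.0, 68.0 and 105 CPM in SOX17KO replicates 1, 2 and 3. No SOX17KO library overlapped Control, and replicate 1 was the lowest of the 3. The means were 30.9 ± 2.3 and 74.1 ± 29 CPM (SD, n = 3), with a log2 fold change of 1.26 ± 0.26 (SE), or 2.40-fold (edgeR adjusted p = 0.0339). Without replicate 1 it was 1.48 (edgeR adjusted p = 0.000109). The call was lost without any one of the Control libraries (edgeR adjusted p = 0.138 to 0.160) or without SOX17KO replicate 2 (edgeR adjusted p = 0.0656), and its log2 fold change was 0.92 without replicate 3.

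Hexokinases make the first phosphorylated glucose. Hk2, the inducible form, was at 509.8, 482 and 451 CPM in Control and 260.2, 377 and 433 CPM in SOX17KO replicates 1, 2 and 3, with all 3 SOX17KO libraries below Control (log2 fold change -0.43 ± 0.18, edgeR adjusted p = 0.239). Hk1, the constitutive form, lay between 448 and 495 CPM in Control, with 259, 557 and 489.9 CPM in SOX17KO, overlapping Control. The phosphofructokinase subunits Pfkl and Pfkm had log2 fold changes of -0.04 and -0.0011. Pfkp, the platelet-type subunit, lay between 506 and 534 CPM in Control, with 352, 663 and 743 CPM in SOX17KO (without replicate 1, log2 fold change 0.42, edgeR adjusted p = 0.00289); its exons overlap Pitrm1 on the other strand. Per kilobase of exon in Control, Pfkl and Pfkp stood at 142 ± 0.61 and 122 ± 3.6 CPM and Pfkm at 10.6 ± 1.3 CPM.

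The later steps of the pathway held the most abundant RNAs. Gapdh, the oxidising step, was at 7595, 7086 and 7147 CPM in Control and 4682, 7400.3 and 7257 CPM in SOX17KO replicates 1, 2 and 3; replicate 1 was low and the other 2 within the Control range. Pgk1, the first ATP-making step, was at 2347, 2467 and 2438 CPM in Control and 1789, 2980.2 and 3387 CPM in SOX17KO, so that replicate 1 was below and the other 2 above Control. Aldoa, the main aldolase, went the same way, at 2157 to 2349 CPM in Control and 1503, 2657 and 2679.9 CPM in SOX17KO, while Aldoc, its brain-type copy, lay between 109 and 128 CPM in Control, with 51.4, 123 and 118 CPM in SOX17KO. Tpi1, which interconverts the triose phosphates, was below Control in all 3 SOX17KO libraries, which had 1559, 2496 and 2455 CPM while Control lay between 2579 and 2679 CPM (log2 fold change -0.27 ± 0.18, edgeR adjusted p = 0.485). Gpi1, Pgam1 and Eno1 had log2 fold changes of 0.017, -0.06 and 0.021. None of these passed with 6 libraries; Pgk1 and Aldoa passed as higher without replicate 1 (log2 fold changes 0.40 and 0.26, edgeR adjusted p = 0.00519 and 0.0278). These enzymes have many processed pseudogenes, and how the authors' counting split reads among copies is not known, so their levels are uncertain.

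At the pyruvate and lactate step, Slc16a3 had the largest fold change of the 5 genes. It encodes MCT4, the exporter of lactate from glycolytic cells, and was at 83.5, 72.6 and 66.1 CPM in Control and 97.6, 213 and 188 CPM in SOX17KO replicates 1, 2 and 3. All SOX17KO libraries were above Control, replicate 1 by the least. The log2 fold change of 1.16 ± 0.27 missed the threshold with 6 libraries (edgeR adjusted p = 0.0519) and was 1.43 ± 0.10 without replicate 1 (edgeR adjusted p = 9.25e-06). Ldha, which makes lactate, lay between 3392 and 3530.2 CPM in Control, and the SOX17KO libraries had 2394, 3545 and 3487 CPM. Ldhb, the heart-type subunit, had only 3 to 34 counts per library and was 0.38 ± 0.089 CPM in Control, so its fold of 2.18 (log2 standard error 0.70) is imprecise (edgeR adjusted p = 0.458). The pyruvate dehydrogenase kinases Pdk1 and Pdk3, which inhibit pyruvate dehydrogenase, had log2 fold changes of -0.04 and 0.16.

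Mitochondrial members shared 1 pattern. Bnip3, a receptor for mitophagy, was at 333, 349 and 296 CPM in Control and 172, 412 and 564 CPM in SOX17KO replicates 1, 2 and 3. Its relative Bnip3l lay between 246 and 254 CPM in Control, and the SOX17KO libraries had 191, 287 and 335 CPM. Higd1a, a hypoxia-induced protein of the respiratory chain, was at 125, 139 and 142 CPM in Control and 109, 170.5 and 176 CPM in SOX17KO. For all 3 genes replicate 1 lay below and the other 2 above every Control library. With 6 libraries 0 of 3 were called by edgeR (adjusted p = 0.712 to 0.816) or DESeq2, with 0 at an unadjusted edgeR p below 0.05, and without replicate 1 all 3 were higher, by 0.58, 0.31 and 0.35 in log2 (edgeR adjusted p = 0.00749, 0.0184 and 0.00865), where 11.9% of all genes were called higher.

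Secreted factors varied widely between SOX17KO libraries. Vegfa, the main growth factor for blood vessels, was at 345, 322 and 267 CPM in Control and 104, 341 and 456 CPM in SOX17KO replicates 1, 2 and 3. Adm, which encodes the vasodilator adrenomedullin, was at 8.65, 8.08 and 6.96 CPM in Control and 3.47, 8.69 and 13.6 CPM in SOX17KO. For both, replicate 1 was the lowest of all 6 libraries and replicate 3 the highest. Their log2 fold changes of -0.05 ± 0.46 and 0.11 ± 0.43 did not pass (edgeR adjusted p = 0.972 and 0.935), nor did they without replicate 1 (0.36 and 0.48, edgeR adjusted p = 0.0823 and 0.0970).

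The 2 collagen prolyl hydroxylase subunits had fold changes of opposite sign. P4ha2 was at 33.8, 30.2 and 28.4 CPM in Control and 41.9, 39.0 and 62.6 CPM in SOX17KO replicates 1, 2 and 3, above Control in every library (log2 fold change 0.63 ± 0.19, edgeR adjusted p = 0.102; without replicate 1, 0.71 and edgeR adjusted p = 0.0125). P4ha1 was at 134, 132 and 119 CPM in Control and 55.3, 86.9 and 126 CPM in SOX17KO, with replicates 1 and 2 below Control and replicate 3 inside its range (log2 fold change -0.52 ± 0.26, edgeR adjusted p = 0.337). The difference between the 2 genes was not tested.

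The remaining hypoxia-induced genes gave the widest single spread. Ndrg1, a stress-induced differentiation gene, was at 682, 663 and 552 CPM in Control and 98.1, 625 and 992 CPM in SOX17KO replicates 1, 2 and 3. Replicate 1 was 2.68 below the Control mean in log2 CPM, the farthest of any tested member, replicate 2 was level with Control and replicate 3 was above it (log2 fold change -0.15 ± 0.67, edgeR adjusted p = 0.944). Mxi1, a MYC antagonist of the MAX network, ranged from 54.9 to 136 CPM in SOX17KO around a Control range of 93.3 to 109 CPM. Ddit4, an mTORC1 inhibitor also called REDD1, was at 221, 234 and 213 CPM in Control and 158, 292 and 355 CPM in SOX17KO (without replicate 1, log2 fold change 0.54, edgeR adjusted p = 0.00220).

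Ankrd37 and Kdm3a had the same order of SOX17KO libraries, with replicate 1 lowest and replicate 3 highest, but every SOX17KO library was below Control. Ankrd37, a small ankyrin-repeat gene and a HIF target, was at 25.2, 25.4 and 24.96 CPM in Control and 10.5, 14.2 and 21.3 CPM in SOX17KO replicates 1, 2 and 3 (log2 fold change -0.72 ± 0.24, edgeR adjusted p = 0.133). Kdm3a, a histone demethylase, was at 181, 187 and 169 CPM in Control and 105, 128 and 161 CPM in SOX17KO (log2 fold change -0.45 ± 0.15, edgeR adjusted p = 0.150). Both passed as lower without replicate 1 (-0.51 and -0.31, edgeR adjusted p = 0.0318 and 0.0497) and without replicate 3 (-1.03 and -0.62, edgeR adjusted p = 0.0213 and 0.0383). Exons of Ankrd37 overlap Lrp2bp and Ufsp2 on the other strand.

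**Figure D3:**
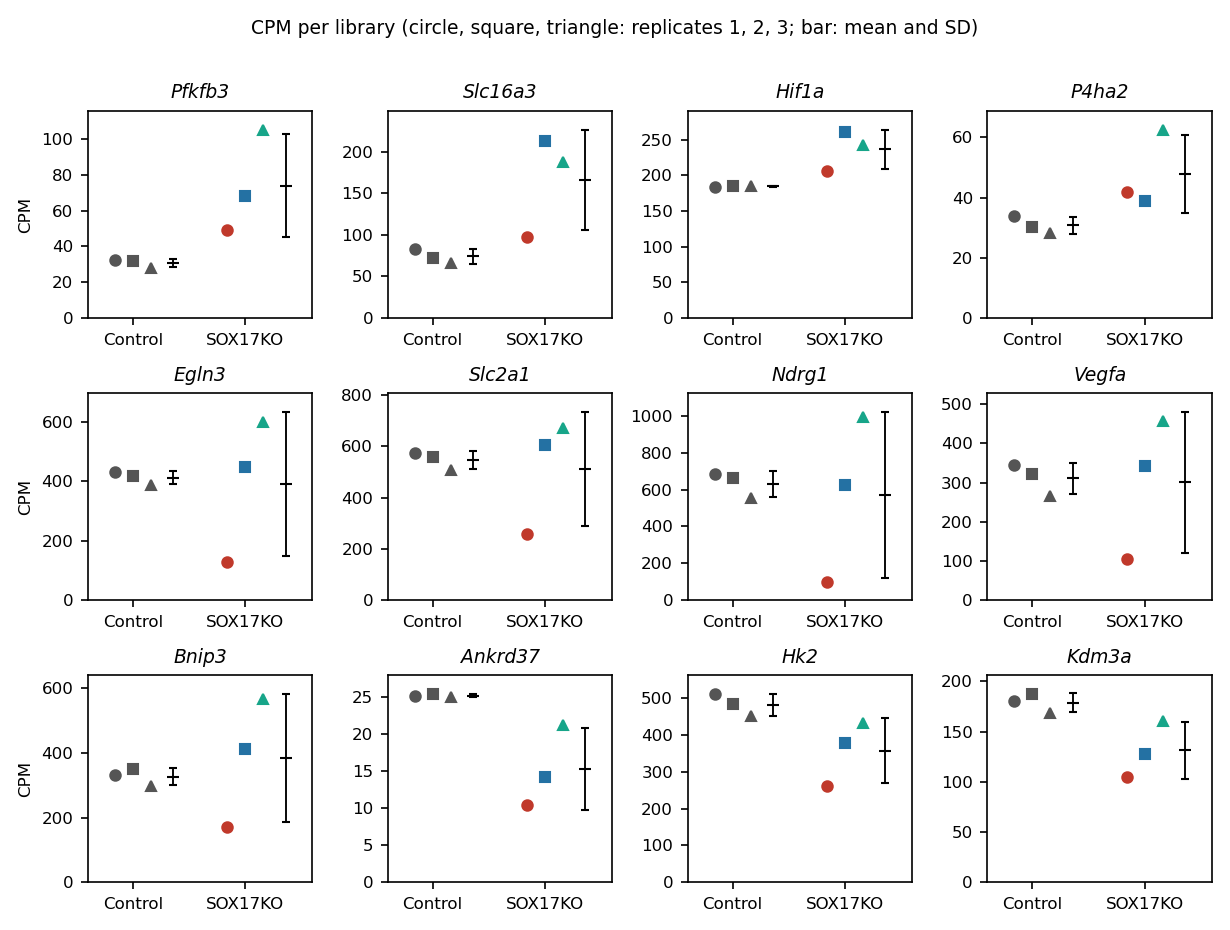
CPM in each library for 12 genes, with Control in grey and SOX17KO in colour (circle, square, triangle for replicates 1, 2, 3) and the group mean and SD as a bar; each y axis starts at 0. In the top row every SOX17KO library is above Control, in the middle row replicate 1 is far below the rest, and in the bottom row Ankrd37, Hk2 and Kdm3a are below Control throughout.

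Chromosome 6 held a share of the lower genes. Of the 4 members below Control in all 3 SOX17KO libraries, Kdm3a, Hk2 and Tpi1 lie on chromosome 6, and Ankrd37 on chromosome 8. The 5 tested members on chromosome 6 also include Gapdh and Ldhb. Over the 586 tested genes on chromosome 6 the median log2 fold change was -0.24, 43.7% had all SOX17KO libraries below Control and 10.8% were called lower, against 0.020, 12.8% and 2.82% for the 11434 tested genes matched to other chromosomes. The part of this regional shift in the values of Kdm3a, Hk2 and Tpi1 was not tested. None of the 4 members above Control in all 3 SOX17KO libraries lies on chromosome 6.

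Genes of the surrounding pathways, taken from 7 lists, gave 3 higher and 1 lower call among 90 tested, a smaller share than the 6.87% of all genes called. The calls were Car9 among 28 tested genes of other HIF-induced genes, Eno3 among 15 of glycolysis and glycogen, Brp44l among 14 of pyruvate and lactate handling, and Slc2a6, which was lower, among 6 glucose transporters. None of 14 HIF subunits and regulators, 10 pentose phosphate genes or 3 gluconeogenesis genes was called with edgeR; at an unadjusted p below 0.05 these had 2, 1 and 0, DESeq2 called 0, 1 and 0, and without replicate 1 edgeR called 1, 0 and 1. Over the 90 genes the median log2 fold change was 0.077.

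Car9, a cell-surface carbonic anhydrase and a classic HIF target, was at 27.5, 23.3 and 20.9 CPM in Control and 74.7, 128 and 231 CPM in SOX17KO replicates 1, 2 and 3. Every SOX17KO library was above Control, including replicate 1, for a log2 fold change of 2.59 ± 0.39, or 6.04-fold (edgeR adjusted p = 0.0115). Eno3, the muscle-type enolase, averaged 11.01 ± 0.44 CPM in Control and 30.1 ± 10.3 CPM in SOX17KO, with its highest SOX17KO value of 41.9 CPM in replicate 1 (log2 fold change 1.45 ± 0.23, edgeR adjusted p = 0.0140). Brp44l, a subunit of the mitochondrial pyruvate carrier now named Mpc1, rose by 0.35 ± 0.08 in log2 (edgeR adjusted p = 0.0478), a call lost with limma-voom (adjusted p = 0.0557) and with no low-count filter (edgeR adjusted p = 0.0723). Slc2a6, a lysosomal hexose transporter, was at 31.3 ± 0.62 CPM in Control and 17.2, 6.67 and 8.04 CPM in SOX17KO (log2 fold change -1.55 ± 0.33, edgeR adjusted p = 0.0386; 0.0562 with library totals only). All 4 calls were lost when any Control library was left out (edgeR adjusted p = 0.0735 to 0.210), those of Brp44l and Slc2a6 also without SOX17KO replicate 2 or 3 (edgeR adjusted p = 0.0686 to 0.112), and all 4 held without SOX17KO replicate 1.

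In the lists without a call, the smallest p belonged to Vhl, which encodes the ubiquitin ligase subunit for HIF, at 43.5 ± 3.6 and 33.6 ± 5.4 CPM (log2 fold change -0.37 ± 0.13, edgeR adjusted p = 0.172), to Taldo1 of the pentose phosphate pathway at 204 ± 5.4 and 241 ± 11 CPM (edgeR adjusted p = 0.113), and to G6pc3 of gluconeogenesis at 15.5 ± 0.82 and 16.96 ± 1.1 CPM (edgeR adjusted p = 0.569).

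The split between SOX17KO libraries was present in the other HIF-induced genes as well. In replicate 1, 25 of these 28 genes were below all Control libraries and 3 above (40.3% and 41.1% of all tested genes). In replicate 2, 16 were above and 8 below (37.7% and 36.1%), and in replicate 3, 23 were above and 3 below (38.1% and 37.3%). Their median differences from Control were -0.46, 0.10 and 0.33 in replicates 1, 2 and 3. Pentose phosphate genes, whose enzymes take glucose 6-phosphate away from glycolysis, had medians of 0.12, 0.16 and 0.088, and 3 of 10 were below Control in replicate 1. Without replicate 1, 12 of 29 other HIF-induced genes were called higher and 0 lower with edgeR (41.4%, background 11.9% for higher calls), and 0 of 10 pentose phosphate genes were called, with 2 at an unadjusted p below 0.05. The difference between the lists was not tested.

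**Figure D4:**
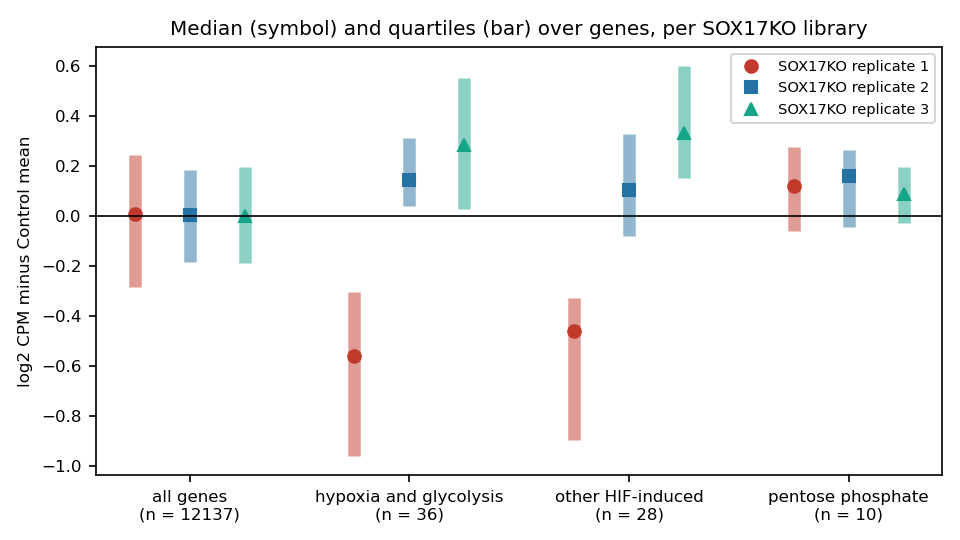
Median (symbol) and quartiles (bar) over genes of log2 CPM minus the Control mean, for each SOX17KO library, in all tested genes, the 36 hypoxia and glycolysis genes, other HIF-induced genes and pentose phosphate genes. Replicate 1 lies at -0.56 and -0.46 in the middle sets and near 0 over all genes.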

How the data were processed

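The authors deposited 1 table of expected counts, estimated reads per gene that need not be whole, for 23224 genes in 6 libraries, and column names tied each one to its sample. Per the submitters' processing notes, Bowtie, RSEM and build mm9 were used; the sources used here give no versions, annotation, strand setting or filters. Per the labels' protocols, libraries were directional after poly(A) selection. Values were rounded and tested with edgeR 4.0.16 in R 4.3.3 (quasi-likelihood F test, TMM, filterByExpr with a minimum count of 10 and total of 15), adjusted over all 12137 genes tested, and called at an adjusted p below 0.05. Standard errors were derived from the F statistic. CPM use TMM-adjusted totals; library positions use log2 CPM with a prior count of 2. Alternatives included DESeq2 1.42.0 and limma 3.58.1. Values per kilobase use merged coding-transcript exons of GENCODE M21 (GRCm38); chromosomes are from RefSeq on GRCm38.p6, matching 99.0% of tested genes. The procedure was tested on simulated data, where it called 22% of 1.5-fold, 71.4% of 2-fold, 91.8% of 4-fold and 98% of 8-fold changes. Of 151 simulated calls, 11 were false. A missing call for a small change is therefore weak evidence of no change. The simulation made no library stand apart, unlike SOX17KO replicate 1 here. Figures used matplotlib 3.10.9.

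The members and lists were chosen with earlier results of these data known. Every member is accounted for; those with values in each library are the called ones and, per role, the one with the smallest p, and others so described were chosen after their values were seen. Outside them, up to 3 called genes per list by smallest p were named, or else the one with the smallest p. The labels name no molecular identifiers, so counts may include amplification copies. No column of the table was left unmapped.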

Additional observations from a re-analysis of the deposited data

How the results depend on the processing

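With 36 genes tested, 1 higher and 0 lower were called in the same way with RLE size factors, with at least 1 CPM in 3 libraries (35 tested), with limma-voom and with unrounded values. Higher calls were 3 with library totals only (Pfkfb3, Slc16a3, Hif1a), 2 with no low-count filter (Pfkfb3, Slc16a3) and 4 with DESeq2 (Pfkfb3, Slc16a3, Hif1a, P4ha2), which also called 1 lower (Ankrd37). Over the surrounding lists DESeq2 called 7 higher and 2 lower, and library totals only called 0 lower. Leaving out 1 library gave 0 to 12 higher and 0 to 2 lower calls, and 0 to 20 higher and 0 to 3 lower in the surrounding lists; the highest counts came without SOX17KO replicate 1. The median difference of SOX17KO replicate 1 from Control was -0.47 with library totals only, in place of -0.56.

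Samples with the same replicate number did not deviate together (correlations -0.19, -0.047 and -0.18), and the main fit did not pair them. With 3 samples per group these values cannot tell if such samples were handled together, and the labels do not say. With the replicate number as a block, 0 of the 36 genes were called by edgeR (6 at an unadjusted p below 0.05; 2.69% of all genes were called), Pfkfb3 and Brp44l had edgeR adjusted p of 0.0905 and 0.175, all calls went from 834 to 326, and Aldoa and Adm had log2 fold changes of -0.012 and -0.060.

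Where the sign of 1 of these 36 genes differed from that with all 6 libraries, the gene was called in neither of those fits. The cause was not tested. Pfkm was at 0.0080 with library totals only, Gpi1 at -0.0012 with no filter, and Aldoa and Adm at -0.011 and -0.17 with limma-voom. Leaving out 1 library, log2 fold changes ranged from -0.42 to 0.24 for Epas1, -0.047 to 0.29 for Egln1, -0.52 to 0.35 for Egln3, -0.34 to 0.23 for Slc2a1, -0.32 to 0.16 for Hk1, -0.065 to 0.17 for Gpi1, -0.15 to 0.064 for Pfkl, -0.045 to 0.42 for Pfkp, -0.089 to 0.14 for Pfkm, -0.098 to 0.26 for Aldoa, -0.47 to 0.038 for Aldoc, -0.29 to 0.0087 for Gapdh, -0.019 to 0.40 for Pgk1, -0.10 to 0.022 for Pgam1, -0.036 to 0.11 for Eno1, -0.23 to 0.029 for Ldha, -0.22 to 0.16 for Pdk1, -0.16 to 0.58 for Bnip3, -0.063 to 0.31 for Bnip3l, -0.48 to 0.36 for Vegfa, -0.38 to 0.48 for Adm, -0.81 to 0.35 for Ndrg1 and -0.33 to 0.26 for Mxi1. The upper end came without SOX17KO replicate 1 for each of these genes. Egln1, Pfkp, Aldoa, Pgk1, Bnip3 and Bnip3l were called higher there and had negative log2 fold changes without SOX17KO replicate 3. Adm and Ldhb are limited by depth, with at most 245 and 34 counts in a library.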
